A study of Oryza sativa with 14 samples.

Results

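The 54 probe sets described here were at least 2-fold lower with ethylene in roots of wild-type (WT) rice and of the mutant mhz1, and hardly differed between gases in roots of the mutants mhz4 and mhz5. They were chosen from 57258 probe sets of a 1-colour Affymetrix rice array on the scale log2(signal + 8). A probe set was taken when ethylene minus air in roots was at most -1 in WT and in mhz1 and between -0.5 and 0.5 in mhz4 and in mhz5. Its signal also had to reach 50 on the WT and mhz1 root air arrays. These root responses and both of these air levels chose the members, so the root values are given as a description with no test.

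RNA came from etiolated seedlings aged 3 days, whose seeds had germinated for 2 days at 37 °C in darkness. Roots of mhz4, mhz5, mhz1 and WT, and shoots of mhz4, mhz5 and WT, were each measured after ethylene and in air, with 1 array per combination and 14 arrays in all. The ethylene seedlings stood in darkness at 28 °C with 10 ppm ethylene for 8 h, and the water was lowered to 1.5 to 1.7 cm below the seeds. Neither duration, temperature nor water level is given for the seedlings in air, so a difference in these cannot be told apart from ethylene. Each RNA sample was prepared from a tissue of many cells, so fewer cells of a type and less RNA per cell cannot be told apart. No group has a replicate array, and the number of arrays therefore limits the precision of every difference between 2 arrays. Both WT root titles hold an extra mark, mb, whose meaning is not given, and in roots this mark and the WT genotype cannot be told apart.

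Ethylene inhibits root growth of etiolated rice seedlings, and abscisic acid (ABA) acts together with it in this response. From published work on these mutants, MHZ4 and MHZ5 act in carotenoid and ABA synthesis, and MHZ1 is a histidine kinase that takes part in ethylene signalling of roots. ABA binds receptors that block clade A protein phosphatases of type 2C, which frees kinases that activate transcription factors. Typical genes switched on by this pathway are those for LEA (late embryogenesis abundant) proteins, among them the dehydrins, which protect membranes and proteins when cells or seeds dry out. The phosphatase genes themselves are also induced by ABA and form a feedback.

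The signals of 3 marker lists checked the tissues. Summed signals of 8 root genes were 7544 to 18288 on the root arrays and 1715 to 3253 on the shoot arrays. Those of 4 shoot genes were 58.9 to 521 on the root arrays and 18200 to 26191 on the shoot arrays, and the highest root value was on the mhz4 ethylene array. Of 15 seed and endosperm genes, 3 reached a signal of 50 on each root array, and the list summed to between 2639 and 3159. The MHZ4 probe set read 45.3 and 46.9 in mhz4 roots in ethylene and air, against 101 and 116 in WT roots. MHZ1 has no probe set assigned to it alone, and MHZ5 was not identified by name.

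In the array's annotation 41 of the 54 members carried 1 gene, which gave 39 genes because LOC4351498 and LOC4343034 had 2 member probe sets each. The other 13 members are unnamed here. An informative name was found for 12 genes. Of these, 4 encode dehydrins and 1 a phosphatase of ABA signalling. The others belong to sugar transport, central metabolism, the cell surface and wall, and transcriptional control. The other 27 named loci had no informative name. So the described functions cover 12 of 39 genes, and no share of a function among the members can be read from them.

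**Figure D1:**
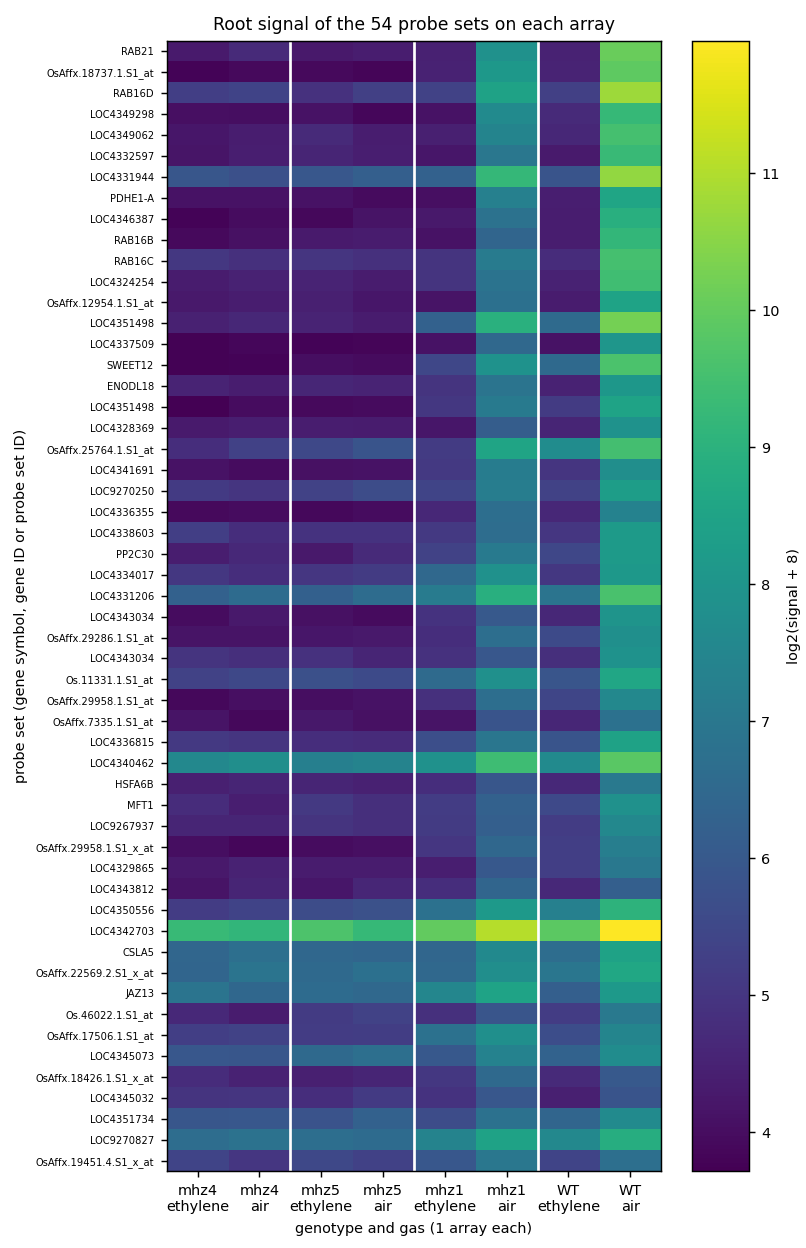
Root signal of the 54 members on log2(signal + 8), coded by colour, with 1 row per probe set and 1 column per array. Rows run from the strongest to the weakest mean ethylene response of WT and mhz1, and the mhz1 air and WT air columns are the brightest in every row.

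The responses that chose the members ran as follows. Ethylene minus air had a median of -0.08 in mhz4 (lowest -0.49, highest 0.46) and of -0.01 in mhz5 (lowest -0.46, highest 0.43). In mhz1 it had a median of -1.75 (lowest -3.61, highest -1.004), and in WT of -2.72 (lowest -5.59, highest -1.25). Over the 19044 probe sets that reached 50 on the WT and mhz1 root air arrays, 92.9% lay within 0.5 of 0 in mhz4 and 91.7% in mhz5, while 1.34% were at least 2-fold lower with ethylene in mhz1 and 2% in WT. The medians over those probe sets were -0.04 in mhz4, -0.01 in mhz5, 0.00 in mhz1 and -0.03 in WT. The decrease was smaller in mhz1 than in WT for 51 of the 54 members. Near the limits, the mhz1 response of JAZ13 was -1.0039 and that of Os.39552.1.A1_s_at just outside was -0.9945. The mhz4 response of OsAffx.25764.1.S1_at was -0.4947 inside the limit and that of OsAffx.22569.2.S1_at was -0.5021 outside it.

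The dehydrin genes held 4 of the 5 named genes with the largest mean decrease. RAB21 is the classical rice dehydrin gene induced by ABA and dehydration. Its member probe set read 11.99 and 18.0 in mhz4 roots in ethylene and air, 11.5 and 12.7 in mhz5, 13.99 and 231 in mhz1, and 14.7 and 1088 in WT. The mhz1 air and WT air arrays thus stood far above the other 6, which lay close together, and WT air stood above mhz1 air. Relative to WT in air, the RAB21 difference was -5.40 in mhz4, -5.73 in mhz5 and -2.20 in mhz1 (log2).

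A second probe set of RAB21, Os.12633.1.S1_at, was also highest on the WT air array and next on the mhz1 air array, with higher signals on both. It read 10.9 and 18.8 in mhz4 roots in ethylene and air, 9.82 and 13.5 in mhz5, 29.2 and 565 in mhz1, and 22.6 and 3089 in WT. Its mhz4 response of -0.5041 put it just outside the limit, so it is no member.

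RAB16D, another dehydrin gene, had 29.97 and 33.7 in mhz4 roots in ethylene and air, 21.6 and 30.9 in mhz5, 32.2 and 349 in mhz1, and 30.8 and 1711 in WT. RAB16B, of the same family, had 7.26 and 9.12 in mhz4, 12.001 and 12.2 in mhz5, 9.52 and 77.5 in mhz1, and 12.9 and 571 in WT. RAB16C, the remaining dehydrin, had 25.1 and 20.7 in mhz4, 23.5 and 20.9 in mhz5, 22.8 and 134 in mhz1, and 19.5 and 727 in WT. In all 3 genes the mhz1 air array was second to the WT air array, and the other 6 arrays lay at one low level. In the current rice gene table (assembly ASM3414082v1) these 4 dehydrin genes are close neighbours: RAB16D lies next to RAB16C and RAB16B next to RAB21, with 2 genes between the pairs. They are similar in sequence, so their probe sets may share transcripts and are not 4 independent observations.

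PP2C30 encodes a clade A phosphatase, a negative regulator of ABA signalling. Its signals were 12.5 and 17.5 in mhz4 roots in ethylene and air, 11.6 and 17.8 in mhz5, 32.3 and 129 in mhz1, and 36.5 and 287 in WT. Both mutants lay below WT in either gas, with differences in air of -3.54 in mhz4 and -3.51 in mhz5.

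SWEET12 belongs to the SWEET family of membrane sugar transporters. It read 5.67 and 6.03 in mhz4 roots in ethylene and air, 8.07 and 7.69 in mhz5, 36.7 and 232 in mhz1, and 84.2 and 776 in WT. Among the member probe sets of named genes it had the lowest air level in mhz4 relative to WT (-5.80), and in mhz5 it was at -5.64. Its signal in WT and mhz1 roots under ethylene was still above that of mhz4 and mhz5 roots in air. The difference mhz4 air minus WT ethylene was -2.72 and mhz5 air minus WT ethylene -2.55 (log2).

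PDHE1-A encodes the alpha subunit of the E1 component of pyruvate dehydrogenase, which links glycolysis to the tricarboxylic acid cycle. It read 9.33 and 9.19 in mhz4 roots in ethylene and air, 9.50 and 7.69 in mhz5, 8.52 and 151 in mhz1, and 13.0 and 372 in WT. It was thus bright on the mhz1 and WT air arrays and dim on the other 6.

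The cell surface and wall were represented by ENODL18, an early nodulin-like protein, and CSLA5, a cellulose synthase-like enzyme of the mannan synthase family. ENODL18 had 15.1 and 12.6 in mhz4 roots in ethylene and air, 16.05 and 15.1 in mhz5, 22.7 and 110 in mhz1, and 14.9 and 264 in WT. CSLA5 had 78.0 and 97.3 in mhz4, 80.8 and 77.5 in mhz5, 79.1 and 189 in mhz1, and 93.1 and 348 in WT. CSLA5 remained well above the array median on every root array, and its air levels in mhz4 and mhz5 lay near its ethylene levels.

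The named regulators were HSFA6B, a heat stress transcription factor, JAZ13, of the JAZ family of jasmonate signalling repressors, and MFT1. MFT1 is related to MOTHER OF FT AND TFL1, which in Arabidopsis takes part in seed germination. HSFA6B read 13.9 and 15.7 in mhz4 roots in ethylene and air, 15.6 and 14.1 in mhz5, 19.9 and 52.3 in mhz1, and 17.4 and 124 in WT. MFT1 read 19.2 and 13.2 in mhz4, 25.8 and 20.3 in mhz5, 28.5 and 70.4 in mhz1, and 38.0 and 231 in WT. Both followed the order of the dehydrins, with a narrower gap between the air arrays and the rest.

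JAZ13 read 109 and 80.7 in mhz4 roots in ethylene and air, 88.9 and 83.7 in mhz5, 173 and 356 in mhz1, and 66.6 and 276 in WT. Unlike for the other named genes, mhz1 air and not WT air was its highest array. As for RAB16C, all 4 arrays of mhz4 and mhz5 lay above WT ethylene.

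**Figure D2:**
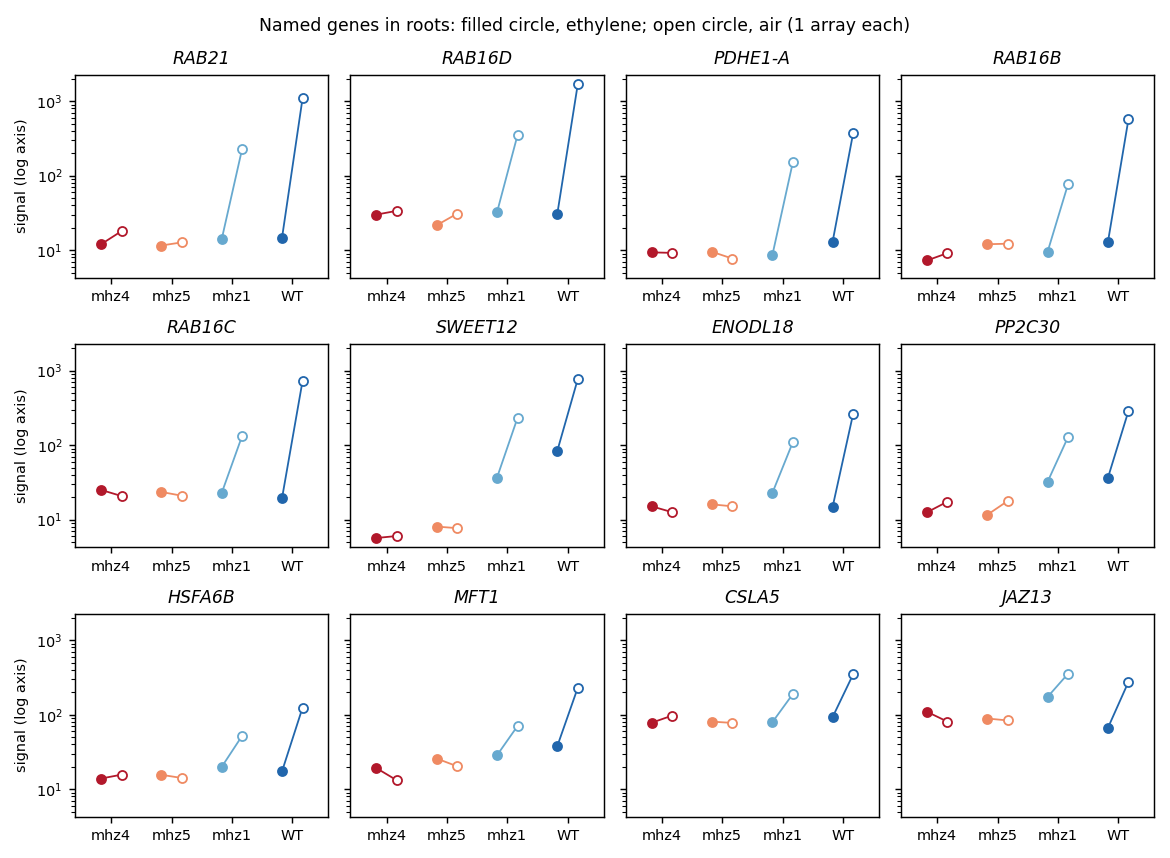
Root signal (log axis) of the 12 named members by genotype, with filled circles for ethylene and open circles for air, 1 array each. In every panel the open circles of mhz1 and WT stand above all other points, while both points of mhz4 and of mhz5 lie together.

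Among the members with 1 gene but no informative name, LOC4349298 and LOC4349062 had the largest mean decrease. LOC4349298 read 8.45 and 8.23 in mhz4 roots in ethylene and air, 9.30 and 6.63 in mhz5, 9.53 and 197 in mhz1, and 18.2 and 599 in WT. LOC4349062 read 10.4 and 12.7 in mhz4, 18.0 and 12.9 in mhz5, 13.5 and 165 in mhz1, and 17.02 and 733 in WT. Both showed the dehydrin pattern at about their size. The following 2 probe sets were singled out after their values were seen. The unnamed OsAffx.18737.1.S1_at was second only to RAB21 in mean decrease, with 5.85 and 7.35 in mhz4, 7.15 and 6.30 in mhz5, 14.6 and 268 in mhz1, and 15.2 and 967 in WT. The brightest member was LOC4342703, with 618 and 553 in mhz4, 803 and 596 in mhz5, 1016 and 2100 in mhz1, and 947 and 4000 in WT, so the pattern was not limited to probe sets near the low end of the scale.

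The rule limits mhz4 and mhz5 to a small difference between gases and does not fix at which level. All 54 members were below WT in air in both mutants, and none was at least 2-fold higher in mhz4 (1.19% of all) or mhz5 (1.65% of all). In mhz4 roots in air 53 of 54 were at least 2-fold lower than in WT, against 5.14% of all 19044 probe sets compared. In mhz5 roots in air 52 of 54 were, against 3.63% of all. The exceptions were LOC4345032 in both mutants, at -0.87 and -0.75, and LOC4345073, at -0.97 in mhz5. The median difference was -3.49 in mhz4 (lowest -5.99, highest -0.87) and -3.36 in mhz5 (lowest -6.09, highest -0.75). Over all probe sets compared the medians were -0.06 and -0.08. At least 4-fold lower were 45 members in mhz4 (1.22% of all) and 45 in mhz5 (0.698% of all), and at least 16-fold lower were 18 in mhz4 (0.137% of all) and 18 in mhz5 (0.142% of all). Part of these differences comes with the choice, since the rule asked for a WT air signal that was high relative to WT ethylene.

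Relative to mhz1 in air, 50 of 54 members were at least 2-fold lower in mhz4 (3.94% of all) and 50 in mhz5 (2.6% of all). Both mutants were at least 2-fold lower than mhz1 for 48 members (2.05% of all), and at least 2-fold lower than WT for 52 (3% of all). Part of these differences comes with the choice too, since the rule asked for an mhz1 air signal that was high relative to mhz1 ethylene. In mhz1 itself 31 of 54 members were at least 2-fold lower than in WT in air (0.614% of all), and 48 were below WT. The median mhz1 minus WT difference in air was -1.13 (lowest -2.76, highest 0.49), against -0.04 over all. The air level was thus ordered mhz4 and mhz5 below mhz1 below WT for most members. The WT air array was the highest root array for 48 members and the mhz1 air array for the other 6.

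The air levels of mhz5 and mhz4 were also set against each other. Mhz5 minus mhz4 in air had a median of 0.03, and 53 of 54 members were less than 2-fold apart, a share near that of all probe sets (98.1%). The remaining 1, the unnamed Os.46022.1.S1_at, was at least 2-fold higher in mhz5 (1.79% of all). Across the 54 members the Pearson correlation of the air levels was 0.966 between mhz4 and mhz5, 0.386 between mhz4 and WT, and 0.779 between mhz1 and WT. These correlations are over probe sets of the same arrays, which the rule chose, and are given as a description.

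The mutant air levels were then compared with the levels that WT roots had under ethylene. Between mhz4 air and WT ethylene, 44 of 54 members were less than 2-fold apart, against 95.8% of all, and 10 were at least 2-fold lower in mhz4 air (3.2% of all), with a median difference of -0.35. Between mhz5 air and WT ethylene, 45 were less than 2-fold apart, against 97.4% of all, and 9 were at least 2-fold lower in mhz5 air (1.53% of all), with a median of -0.26. None was at least 2-fold higher in mhz4 air (1.01% of all) or mhz5 air (1.1% of all). SWEET12 was at least 2-fold lower in both mutants, and MFT1, at -1.12, in mhz4.

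Under ethylene itself the genotypes differed less. For mhz4 and mhz5 this comes with the choice, since the rule asked for a decrease in WT and little change in these mutants. In mhz4 9 members were at least 2-fold lower than in WT under ethylene (2.84% of all), in mhz5 10 (2.61% of all), and none was at least 2-fold higher in mhz4 (0.494% of all) or mhz5 (0.793% of all). The medians of the difference were -0.49 in mhz4 and -0.35 in mhz5. In mhz1 2 members were at least 2-fold lower (0.457% of all) and 3 at least 2-fold higher (0.441% of all) than in WT under ethylene, with a median of -0.07. The lower ones were SWEET12 and OsAffx.25764.1.S1_at, and the higher ones JAZ13, LOC4334017 and OsAffx.17506.1.S1_at. The member with the lowest value, OsAffx.25764.1.S1_at at -2.57, was one of the 3 whose decrease was larger in mhz1 than in WT, with signals of 27.5 and 361 in mhz1 roots in ethylene and air, and 203 and 712 in WT roots.

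**Figure D3:**
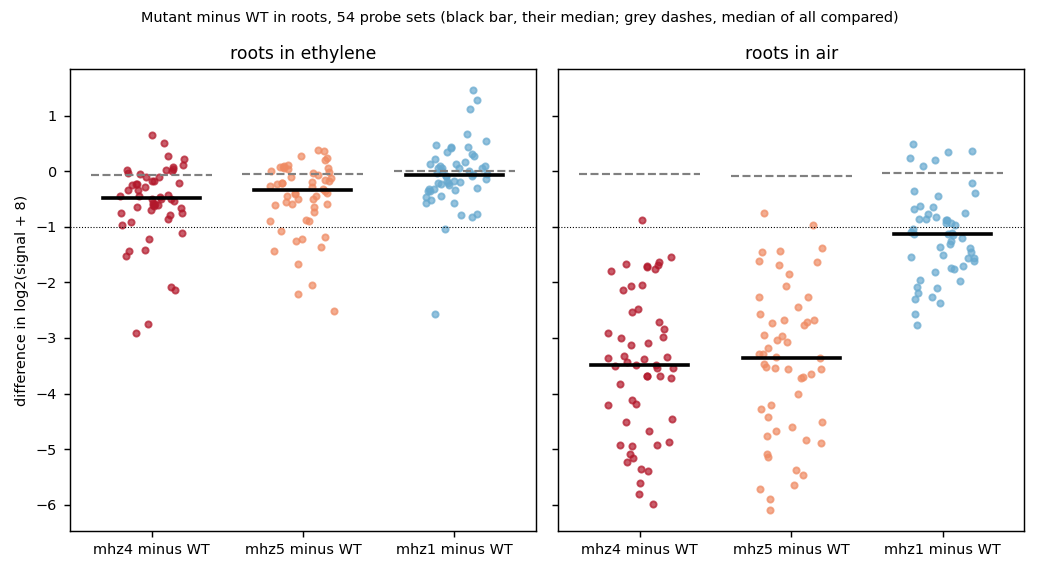
Difference in log2(signal + 8) of mhz4, mhz5 and mhz1 from WT in roots, in ethylene (left) and in air (right), 1 point for each of the 54 members. Black bars are their medians, grey dashes the medians over the 19044 probe sets compared and the dotted line a 2-fold decrease; in air the medians are -3.49, -3.36 and -1.13, and in ethylene -0.49, -0.35 and -0.07.

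Many members were dim where they were low, which limits how small their differences can be resolved there. The median member signal was 15.5 and 15.9 in mhz4 roots in ethylene and air, 17.02 and 15.96 in mhz5, 25.2 and 124 in mhz1, and 28.4 and 302 in WT. On the mhz4 air array and on the mhz5 air array 28 members lay under the median of all probe sets, which was 16.6 and 16.4. Detection calls were not used here, so whether these signals stand above background is not known, and a response near 0 at such a signal cannot be told apart from an absent transcript. Of the named genes RAB16B, PDHE1-A, SWEET12, ENODL18 and HSFA6B lay under the median on both of these arrays, while CSLA5 and JAZ13 were far above it on all arrays of mhz4 and mhz5.

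The WT and mhz1 air arrays also differed from the other 6 root arrays in the root marker list. Its summed signal was 12231 to 18288 on the 4 arrays of mhz4 and mhz5, 13390 and 8164 in mhz1 roots in ethylene and air, and 13041 and 7544 in WT roots. The list was thus lowest on the arrays where the members were highest, and its part in the results was not tested. The seed marker list did not separate these arrays, with sums of 3140 on the mhz1 air array and 3120 on the WT air array within a range of 2639 to 3159 over the root arrays. Both the mhz1 and the WT air arrays were above the other 6 root arrays for all 54 members, a pattern that 12.7% of all probe sets compared also had. Part of this comes with the choice, since the rule asked for a decrease with ethylene in both mhz1 and WT.

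A choice of members that leaves out the WT root arrays allows the WT response to be read on arrays that this choice did not use. With the conditions on mhz1, mhz4 and mhz5 alone 65 probe sets were found. Of these, 54 (83.1%) were at least 2-fold lower with ethylene in WT, against 1.95% of the 19582 that reached 50 on the mhz1 air array. Lower at all in WT were 64, with a median of -2.38, against a median of -0.03 over the 19044 probe sets compared. These 54 are the members. In air 59 of the 65 were at least 2-fold lower in mhz4 than in WT (5.05% of all) and 58 in mhz5 (3.56% of all), with medians of -3.32 and -3.04. This choice still used the mhz4 and mhz5 air arrays, so these air counts are a description. Left out the other way, with the conditions on WT, mhz4 and mhz5 alone, 214 probe sets were found, of which 65 (30.4%) were at least 2-fold lower with ethylene in mhz1 against 1.36% of 19885. Of the 214, 205 were lower at all in mhz1, with a median of -0.71, against a median of 0.0008 over the 19044 probe sets compared. So most probe sets chosen through mhz1 were also at least 2-fold lower with ethylene in WT. Those chosen through WT were mostly lower in mhz1, but often by less than 2-fold. Both choices were made after the data were seen.

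Probe sets that were lower with ethylene in both WT and mhz1 numbered 179 at the same signal minimum, and 125 of them were no members. Of these 125, 75 were at least 2-fold lower with ethylene in mhz4 too and 85 in mhz5. Over all 19044 probe sets compared, 92.9% lay within 0.5 of 0 in mhz4 and 91.7% in mhz5. The air levels of the 125 were also below WT but less so, with medians of -1.31 in mhz4 and -1.14 in mhz5. At least 2-fold lower than WT in air were 75 in mhz4 (5.14% of all) and 73 in mhz5 (3.63% of all). The rule separates the 54 from the 125 by the mhz4 and mhz5 responses, which share the mhz4 and mhz5 air arrays with these differences, so the contrast is a description.

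The wider gene lists show how far the pattern reached within pathways. Each gene is represented by its brightest probe set, so RAB21 appears here through its non-member probe set. Of all 19044 probe sets compared, 5.14% were at least 2-fold lower than WT in air in mhz4 and 3.63% in mhz5. All 8 LEA and dehydrin genes measured in roots were at least 2-fold lower in air in mhz4 and in mhz5 than in WT, with medians of -4.23 and -4.21, and 7 of 8 in mhz1, with a median of -2.32. A gene counted as measured when it reached 50 on any root array, so a gene that did so only in WT or mhz1 had to differ. RAB25 and EMP1 reached it on the WT air array alone, and RAB21, RAB16B, RAB16C and RAB16D on the mhz1 and WT air arrays alone. The 2 that also reached it in mhz4 and mhz5 roots were DHN1, at 515 and 545 in mhz4 and mhz5 air against 1378 in WT air, and LEA19, at 103 and 105 against 1516. With ethylene 1 of them was at least 2-fold lower in mhz4, 1 in mhz5, 5 in mhz1 and 7 in WT, and RAB16B, RAB16C and RAB16D met the rule. The gene lower in mhz4 and mhz5 with ethylene was LEA19, at -1.06 and -1.32. The least affected was DHN1, a dehydrin gene, at -1.41 in mhz4 and -1.33 in mhz5 in air, and its ethylene responses were -0.00, 0.15, -0.63 and -0.98 in mhz4, mhz5, mhz1 and WT.

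Of 21 genes of ABA signalling (receptors, clade A phosphatases, SnRK2 kinases and bZIP factors), 19 were measured. In air 6 were at least 2-fold lower in mhz4 than in WT and 6 in mhz5, none was at least 2-fold higher, and the medians were -0.54 and -0.56. PP2C30 and PP2C68 reached the signal minimum in WT and mhz1 roots alone and so had to differ. Of the 16 genes that reached it on an mhz4 or mhz5 root array, 4 were at least 2-fold lower in air in mhz4 and 4 in mhz5. With ethylene none of the 19 was at least 2-fold lower in mhz4 or mhz5, PP2C30 was in mhz1, and PP2C30, PP2C68 and PP2C08 were in WT. PP2C68, a clade A phosphatase, came close to the rule, with responses of -0.37 in mhz4, -0.20 in mhz5, -0.89 in mhz1 and -2.30 in WT, and air levels of -3.30 in mhz4 and -3.16 in mhz5 relative to WT. At the other end was SAPK6, an SnRK2 kinase, with 0.37 in WT and air levels of -0.34 in mhz4 and 0.11 in mhz5.

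Of 11 genes of ABA and carotenoid metabolism 9 were measured and none met the rule. In air 6 were at least 2-fold lower in mhz4 and 6 in mhz5, with medians of -1.18 and -1.29. PSY3, a phytoene synthase that makes the first carotenoid, read 19.8 and 13.1 in mhz4 roots in ethylene and air, 31.0 and 16.1 in mhz5, 41.6 and 180 in mhz1, and 26.6 and 259 in WT. It had the member pattern apart from an mhz5 response of 0.70, above the limit. PSY3 reached the signal minimum on the mhz1 and WT air arrays alone and so had to differ. Of the 8 genes that reached it on an mhz4 or mhz5 root array, 5 were at least 2-fold lower in air in mhz4 and 5 in mhz5. AO-2, an aldehyde oxidase gene, had the highest WT response of the list, 0.18, and air levels of 0.35 in mhz4 and 0.31 in mhz5.

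The ethylene signalling genes did not share the pattern. Of 8 genes 7 were measured, none met the rule, and in air 1 was at least 2-fold lower in mhz4 and 0 in mhz5, with medians of -0.06 and -0.08. The receptor gene ETR2 had ethylene minus air values of like size in all 4 genotypes, at 1.08 in mhz4, 1.18 in mhz5, 1.27 in mhz1 and 1.18 in WT. EIL1B, of the EIN3-like transcription factors, had responses of -1.36 in mhz4, -1.74 in mhz5, -1.23 in mhz1 and -0.85 in WT. Of 17 sugar transport genes 10 were measured, and SWEET12 alone was at least 2-fold lower in air in mhz4 and mhz5. It reached the signal minimum in WT and mhz1 roots alone and so had to differ. Of the 9 genes that reached it on an mhz4 or mhz5 root array, none was at least 2-fold lower in air in either mutant. SWEET2b was at least 2-fold higher in air, at 1.50 in mhz4 and 1.17 in mhz5. The list medians in air were 0.19 in mhz4 and 0.34 in mhz5. The gene of that list nearest to SWEET12 in WT response was SWEET14, at -0.50 with ethylene. In air SWEET14 was at -0.68 in mhz4 and -0.56 in mhz5, while SWEET6a had the highest WT response of the list, 0.95.

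**Figure D4:**
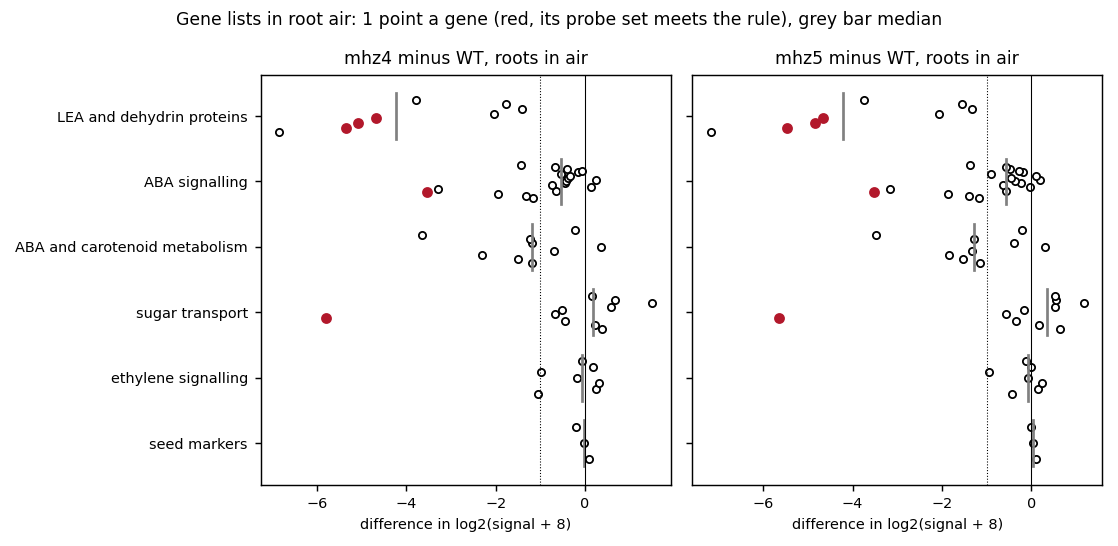
Difference in log2(signal + 8) from WT in root air for mhz4 (left) and mhz5 (right), 1 point per measured gene of 5 pathway lists and the seed marker list. Red points are genes whose shown probe set meets the rule, grey bars are list medians and the dotted line is a 2-fold decrease; all 8 LEA and dehydrin genes lie left of that line in both panels.

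Shoots are the arrays that the rule did not use, and only there were members tested. A limma model with genotype and gas was fitted to the 6 shoot arrays for the 20760 probe sets that reached 50 on 2 or more of them, with Benjamini-Hochberg adjustment over all. The 2 gases stood in as replicates of a genotype and the 3 genotypes as replicates of the ethylene effect, so a genotype effect that depends on the gas enters the residual spread. Most members were low in shoots: 27 of 54 reached 50 on the WT air array, 10 on the mhz5 air array and 8 on the mhz4 air array. Of the 54 members 19 were tested and 35 were not.

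In mhz4 shoots 10 of the 19 were called lower than WT and none higher, against 6.37% of all probe sets called lower. In mhz5 shoots 11 were called lower and none higher, against 2.93% of all. In both mutants 9 probe sets, for 7 genes, were called lower, against 2.22% of all. A member that entered only because it was bright in WT had to differ, so these counts do not stand for the members as a whole. Of the 10 members that reached 50 on at least 2 of the 4 mutant arrays, 5 were called lower in mhz4 (6.11% of all that did so) and 4 in mhz5 (2.72% of all that did so). Without a filter all 54 were tested, of which 17 were called lower in mhz4 (2.26% of all) and 16 in mhz5 (1.05% of all). On the fit without the WT shoot air array, 6 of the 11 members still tested were called lower in mhz4 (3.48% of all) and 3 in mhz5 (1.47% of all). Both WT shoot arrays lay above the 4 mutant arrays for 10 of the 19 (15.1% of all).

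PP2C30 was called lower in both mutants in shoots. It read 12.7 and 15.7 in mhz4 shoots in ethylene and air, 11.2 and 13.8 in mhz5, and 85.5 and 114 in WT, and the groups did not overlap. The log2 difference from WT was -2.27 ± 0.15 in mhz4 (SE, limma adjusted p = 0.00336) and -2.38 ± 0.15 in mhz5 (SE, limma adjusted p = 0.00481). It reached 50 on the WT arrays alone and so had to differ to be tested, and with no filter the limma adjusted p was 0.000553 in mhz4 and 0.000626 in mhz5. The member probe set of RAB21 read 30.8 and 30.1 in mhz4 shoots in ethylene and air, 23.1 and 18.1 in mhz5, and 80.7 and 396 in WT. The WT arrays were above all mutant arrays but far apart from each other, and the difference was -2.73 ± 0.59 in mhz5 (limma adjusted p = 0.0485), whereas that in mhz4 was -2.30 ± 0.59 (limma adjusted p = 0.053) and missed the threshold. It too reached 50 on the WT arrays alone, and with no filter its limma adjusted p was 0.0463 in mhz4. The other probe set, Os.12633.1.S1_at, was called lower in mhz4, at -2.41 ± 0.52 (limma adjusted p = 0.0356), and in mhz5, at -2.90 ± 0.52 (limma adjusted p = 0.0336), so the probe sets of this gene differ in their mhz4 call. Under the 7 other settings tried for RAB21 in mhz5, the limma adjusted p ran between 0.0377 and 0.133.

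Among the genes with no informative name, LOC4343034 and LOC4351498 were singled out after their shoot values were seen. LOC4343034 read 132 and 270 in mhz4 shoots in ethylene and air, 99.9 and 202 in mhz5, and 656 and 1362 in WT by its probe set Os.54579.1.S1_s_at. Its difference was -2.28 ± 0.10 in mhz4 (limma adjusted p = 0.00214) and -2.67 ± 0.10 in mhz5 (limma adjusted p = 0.00301). In roots the same probe set read 7.79 and 11.5 in mhz4, 8.95 and 7.69 in mhz5, 22.6 and 56.4 in mhz1, and 16.8 and 244 in WT. By this probe set the gene was thus below WT in both tissues of both mutants, and far brighter in shoots. Its other member probe set, Os.54579.1.S1_at, read 22.8 and 20.4 in mhz4 roots in ethylene and air, 21.7 and 15.8 in mhz5, and 20.5 and 234 in WT. In roots that probe set was below WT in air but not in ethylene. LOC4351498 read 27.3 and 30.1 in mhz4 shoots in ethylene and air, 32.4 and 40.2 in mhz5, and 253 and 187 in WT by Os.51775.1.S1_at, and both mutants lay below both WT arrays. It reached 50 on the WT arrays alone and so had to differ to be tested. Its difference was -2.62 ± 0.19 in mhz4 (limma adjusted p = 0.00427) and -2.36 ± 0.19 in mhz5 (limma adjusted p = 0.00879), and with no filter the limma adjusted p was 0.000996 and 0.00229.

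Of the 4 dehydrin genes RAB21 passed the signal filter in shoots, and RAB16B, RAB16C and RAB16D did not. RAB16D read 21.5 and 17.2 in mhz4 shoots in ethylene and air, 26.7 and 20.5 in mhz5, and 26.8 and 25.6 in WT, so its high root signal in WT air had no counterpart in WT shoots. RAB16B read 19.4 and 25.2 in mhz4 shoots, 25.1 and 27.2 in mhz5, and 44.9 and 64.4 in WT. SWEET12 and PDHE1-A were dim in every shoot array, with 3.99 to 5.57 and 5.37 to 9.23.

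Of the 19 members tested in shoots, 2 fell with ethylene and none rose, against 0.65% of all called lower. At an unadjusted p under 0.05 limma had 8 of the 19 lower, against 8.24% of all. The ethylene term was below 0 for 17 of the 19, against 54.6% of all, with a median of -0.28 against -0.02 over all. Without a filter 2 of 54 fell (0.323% of all). The called genes were LOC4343034, at -0.998 ± 0.08 by Os.54579.1.S1_s_at (limma adjusted p = 0.0148), and LOC4329865, at -0.97 ± 0.10 (limma adjusted p = 0.0288). The other member probe set of LOC4343034, Os.54579.1.S1_at, was not called. Its ethylene minus air values in shoots were -0.40 in mhz4, -0.87 in mhz5 and -0.86 in WT. LOC4329865 read 58.2 and 133 in mhz4 shoots in ethylene and air, 81.2 and 174 in mhz5, and 152 and 269 in WT, so the ethylene array was lower in each genotype, mutants included. In the fit without the mhz4 arrays, and in that without the mhz5 arrays, no member was called for ethylene. JAZ13 read 38.4 and 24.2 in mhz4 shoots in ethylene and air, 105 and 49.8 in mhz5, and 49.8 and 187 in WT. Its ethylene minus air values of 0.53 in mhz4, 0.97 in mhz5 and -1.75 in WT had opposite signs, and the common ethylene term was -0.08 ± 0.52 (limma adjusted p = 0.963).

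The unnamed OsAffx.12954.1.S1_at, also singled out after its values were seen, separated the mutants in shoots. It read 12.2 and 16.7 in mhz4 shoots in ethylene and air, 142 and 140 in mhz5, and 74.1 and 134 in WT. Its difference from WT was -2.27 in mhz4 (limma adjusted p = 0.00632), and 0.46 in mhz5 (limma adjusted p = 0.192). The difference between the mutants was not tested. In roots it had the member pattern in both, with 11.5 and 12.7 in mhz4, 13.6 and 10.6 in mhz5, 9.87 and 99.5 in mhz1, and 12.4 and 351 in WT.

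**Figure D5:**
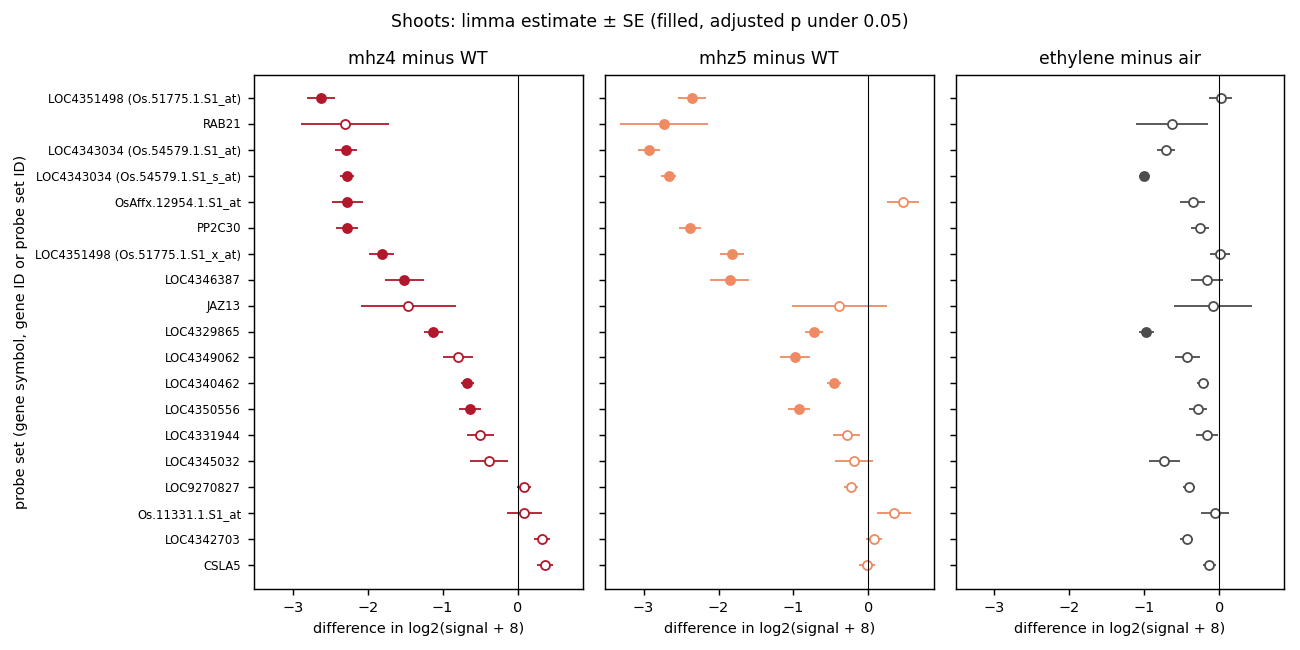
Limma estimates ± SE in shoots for the 19 members tested, for mhz4 minus WT, mhz5 minus WT and ethylene minus air on log2(signal + 8). Filled points have an adjusted p under 0.05: 10 in mhz4, 11 in mhz5 and 2 with ethylene, all below 0.

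Of the pathway lists in shoots, all 3 LEA and dehydrin genes tested were called lower in mhz4 and in mhz5, with medians of -2.41 and -2.90 against 0.05 and 0.09 over all probe sets tested, of which 6.37% and 2.93% were called lower. Of these 3, DHN1 reached 50 on all 6 arrays, LEA19 on the WT arrays alone and RAB21 on the WT arrays and that of mhz4 in air, so LEA19 and RAB21 entered through WT and had to differ. The ABA signalling list had 17 genes tested, of which 6 were called lower and 3 higher in mhz4, and 6 lower and 0 higher in mhz5. Of all 20760 probe sets tested, 2151 were called higher in mhz4 and 1367 in mhz5. Among the lower ones, PP2C30 and PP2C09 reached 50 on the WT shoot arrays alone and so had to differ. In mhz4 shoots 3 of 10 genes of ABA and carotenoid metabolism were called lower and 3 higher, and in mhz5 2 and 2. None of these 3 lists had a gene called for ethylene in shoots.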

How the data were processed

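The authors deposited 1 intensity per probe set and array for 14 arrays, all used. Per the submitters' processing notes the tool was MAS5, whose version and scaling target are unstated there. Groups followed the labels, and every column was assigned to a sample. The members and gene lists were chosen with earlier results of these data known.

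The 123 control probe sets were left out. Deposited intensities were used as given, as log2(signal + 8), a scale that makes changes of dim probe sets look smaller. Names came from the platform annotation (22436 probe sets with 1 gene, 95 with several, 34727 unnamed here) and the current gene table, in which all 39 member genes were found. Probe sets of similar genes may share transcripts. Named are members with an informative symbol, ordered by mean WT and mhz1 response, the 2 strongest without one, and for each list the genes with the lowest and highest WT response outside the members.

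Shoot tests used limma 3.58.1 in R 4.3.3 (lmFit, eBayes with trend, threshold 0.05), tested on simulated data. Nothing says whether the arrays came from separate plants, so p-values measure only the spread between these arrays. Alternatives varied the pseudocount, scaling, limits, filter, fit and arrays. No promoter or protein sequences were used here, so promoter motifs were not counted.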

Additional observations from a re-analysis of the deposited data

How the results depend on the processing

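Beside the 54 members, the rule gave 29 probe sets with a window of 0.25, 33 with a minimum signal of 100, 32 with a decrease of at most -1.5 and 214 without the mhz1 root arrays, and between 50 and 66 under the other 7 settings. The counts of members below WT or mhz1 in root air kept within 1.5 times under every setting tried. In shoots, members called for ethylene numbered 2 in the fit reported and 0 in a fit on all 14 arrays, 0 without the mhz4 shoot arrays, 0 without the mhz5 shoot arrays, 4 without the WT shoot arrays and 4 without the WT shoot air array. The last setting and the rules without WT or mhz1 root arrays were chosen after seeing the data. Over all probe sets the ethylene calls numbered 201 in the fit reported and 560, 2, 0, 1026 and 1073 under these. Members called for mhz4 numbered 10, against 17 with no filter, 4 in the fit on all 14 arrays and 6 without the WT shoot air array. Those called for mhz5 numbered 11, against 3 in the fit on all 14 arrays and 3 without the WT shoot air array. Over all probe sets, calls numbered 3473 for mhz4 and 1975 for mhz5, and 6094 and 4572 in the fit on all 14 arrays, 2202 and 1283 without the WT shoot air array, and 782 for mhz5 without the mhz4 shoot arrays. Fewer arrays or probe sets entered some of these fits, and otherwise the cause was not tested. At an unadjusted p under 0.05, limma without the mhz4 shoot arrays and without the mhz5 shoot arrays left 6 members each for ethylene, against 4.72% and 5.52% of all lower. The call of RAB21 in mhz5 shoots was lost in 4 of its settings (limma adjusted p = 0.0514 to 0.133). Quantile normalization moved the calls over all probe sets in shoots from 2151 higher and 1322 lower to 1761 and 1704 in mhz4, and from 1367 and 608 to 985 and 926 in mhz5. No paired analysis was possible because every group has 1 array.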
